A study of Homo sapiens with 40 samples.

Results

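Mitochondria make few of their own proteins, and the rest are synthesised in the cytosol and imported. Precursors are met at the outer membrane by the TOM complex, passed across the space between the membranes, and sent by the TIM23 or TIM22 translocase into or through the inner membrane, where a motor pulls matrix proteins inside and a peptidase removes their targeting peptide. The 33 mRNAs described here encode this machinery in HEK293 cells, an established human embryonic kidney line. They were picked by gene symbol from the 55765 rows of the count files, by a rule that names no measured value, with earlier results of these data known. Of the 33, 32 were tested. The remaining mRNA, TOMM6, which encodes a small TOM subunit, was listed at 0 in all 40 libraries. In GENCODE 44 the TOMM6 exons lie 100% within another gene on the same strand, and the part of this overlap in the 0 was not tested.

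The libraries form 12 groups in 3 experiments. In RNA immunoprecipitation with sequencing (RIP-Seq), endogenous eIF4A1, eIF4A2 or DDX6 was immunoprecipitated (IP) from untransfected HEK293 lysate, and the bound RNA was sequenced next to total RNA of such lysates (n = 3 each). eIF4A1 and eIF4A2 are close paralogs of a translation initiation helicase, and DDX6 is a helicase of mRNA repression and decay. In the gradient experiment, cells received either control siRNA or CNOT1 siRNA, which targets the scaffold of the Ccr4-Not deadenylase complex, and RNA came from the unfractionated input, from pooled subpolysomal fractions 1 to 5 or from pooled polysomal fractions 6 to 11 of sucrose gradients (n = 4 each). In the TNRC6 experiment, total RNA came from cells given control siRNA or TNRC6A/B siRNA, which targets 2 adaptors of miRNA repression (n = 2 each). A knockdown rests on siRNA delivered to a whole culture at a single harvest time, and IP libraries without antibody or with control IgG were not analysed here. Nothing in the labels says that replicates were separate cultures, so p-values measure the spread between these libraries.

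Libraries held 15.4 to 46 M counts (M, mega). HEK293 genes LIN28B (126 to 267 counts per 1000000, CPM), IGF2BP1 (232 to 663) and NEFM (197 to 6060) were present throughout. PAX2, also chosen beforehand as a gene expressed in HEK293 cells, was nearly absent at 0.0981 to 1.57 CPM. The blood, liver, squamous and endothelial genes PTPRC, CD3E, HBB, ALB, KRT5 and CDH5 did not exceed 0.4 CPM in any library. After CNOT1 siRNA, CNOT1 fell by 4.08 ± 0.11 (SE) on the log2 scale in input and fell by 1.79 ± 0.10 in subpolysomal RNA, and without the libraries described next it fell by 4.10 ± 0.13 in polysomal RNA (-1.05 ± 0.72, FDR = 0.677, with them). In polysomal RNA 2 libraries went against their labels. The library labelled control siRNA replicate 3 held 28.4 CPM of CNOT1 (other controls 471 to 502), and the library labelled CNOT1 siRNA replicate 3 held 633 (others 24.1 to 31.7). Both were left out of the gradient fit, which used 22 of 24 libraries, and values from a fit with all 24 as labelled are given for many polysomal results. After TNRC6A/B siRNA, TNRC6A stood at 40.5 and 64.7 CPM (178 and 189 in controls) and TNRC6B at 17.7 and 26.3 (67.6 and 73.1). Their log2 changes of -1.80 ± 0.29 and -1.68 ± 0.28 were not called by edgeR (FDR = 1.0) and were called by DESeq2 (FDR = 0.0246 and 0.0329).

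In input RNA of control cells the import mRNAs spanned a wide range of levels. Normalised to kilobase of mRNA, TOMM7, a small subunit of the TOM complex, was the most abundant at 397 ± 25.7 CPM per kb (SD, n = 4), ahead of TOMM20, the receptor for presequences, at 185 ± 11.2. HSPA9, the mitochondrial HSP70 of the import motor, followed at 164 ± 11.0. TOMM40, the channel protein, at 99.3 ± 8.5 and TIMM17A, a TIM23 complex subunit, at 98.3 ± 4.51 differed by less than their SD. TIMM13, a chaperone of the space between the membranes, ranked ninth at 69.5 ± 9.37 CPM per kb, close to TIMM23 (70.6 ± 4.47) and TIMM10 (65.6 ± 6.24). At the low end were TOMM5, a small TOM subunit, at 8.41 ± 0.783 and GFER, the oxidase of the disulfide relay, at 8.26 ± 0.475. TOMM5, PAM16, SAMM50 and PMPCB share exonic bases with other coding genes on the same strand (at most 14.4%, 22.4%, 2.3% and 0.7% of their own). PMPCB also shares 7.0% with a same-strand noncoding gene. Counts of these mRNAs are uncertain for that reason. TIMM23 has a near-identical copy in TIMM23B and its counts are uncertain too. Genes on the opposite strand cover 20.1% of the exonic bases of TIMM13 (TMPRSS9) and of TOMM40L (NR1I3), 30.1% of TIMM8B, 29.4% of TIMMDC1, 41.5% of GFER and 15.5% of TIMM17B. One such gene covers 17.3% of MTX1, and TOMM20L alone covers 12.3% of TIMM9. Some further import mRNAs have smaller overlaps. How strand was set in counting is not given, so reads of these partners cannot be told apart.

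The messages are short. Their coding sequences had a median of 615 nt against 1440 nt over the 12846 tested genes with mRNA features, and their 5′UTRs a median of 78 nt against 147. The shortest reading frames were those of TOMM5 (51 codons) and TOMM7 (55), the small TIM chaperones TIMM8A, TIMM8B, TIMM9, TIMM10 and TIMM13 had 83 to 97, and HSPA9 had 679. Purine-rich motifs near the start codon were among the features the study examined. To show this stretch for messages that behaved differently in the IPs and gradients, the 30 nt before the AUG are given 5′ to 3′ (GENCODE 44, GRCh37, which is hg19), with 8 purine tetramers in capitals (those spelled AAGA or AGAA, those spelled GAAA or GAGA, those spelled AGAG or GGAA, and those spelled AAAA or GAAG).
TOMM40L (start codon at chromosome 1 position 161196280, plus strand): cctcggctcttcccagtcctctggactaaa
DNAJC19 (chromosome 3, 180707390, minus strand): cggtGGAAgcaagggagcccagccggagcc
SAMM50 (chromosome 22, 44351458, plus strand): ctctgcgaggcagcggctgGAGAgGGAAcc
TIMM13 (chromosome 19, 2427531, minus strand): cggcctcggtccggttgactttgcggagcc
TOMM7 (chromosome 7, 22862398, minus strand): gggtcctccctgcgccacacggccgtcgcc
TOMM5 (chromosome 9, 37592529, minus strand): gcggctGGAAgctgctaagtcAGAGccgcg
TOMM40L had the highest eIF4A2 IP signal of the import mRNAs relative to total RNA and was raised in every IP. It has none of these tetramers in this window. SAMM50, the lowest with eIF4A2 and lowered in every IP, has 2. Counted on the mRNA strand without overlap, 13 of the 23 import mRNAs with a 5′UTR of at least 30 nt held a tetramer here (56.5%), against 44.9% of 11678 tested mRNAs. In the last 50 nt the shares were 66.7% of 21 and 59.3% of 10771. Over the whole 5′UTR the order of the 2 mRNAs reversed, with 2.36 tetramers per 100 nt in TOMM40L and 1.47 in SAMM50. The median of the 10771 mRNAs was 1.69. Such matches describe letters in a window and no binding site.

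To see which import mRNAs each helicase recovered, every IP was compared with RIP total RNA (edgeR quasi-likelihood F-test, with a call where the FDR of Benjamini and Hochberg over the 17474 tested genes was under 0.05). The eIF4A2 IP held import mRNAs mostly at reduced levels, while the eIF4A1 and DDX6 IPs were more even. In the eIF4A1 IP, 8 of 32 were higher and 11 lower than in total RNA, against 26.1% higher and 26.5% lower of all genes. In the eIF4A2 IP 3 were higher and 18 lower, against 24.5% and 25.8%. In the DDX6 IP 10 were higher and 8 lower, against 22.7% and 23.3%. The median log2 fold change over the 32 was -0.18, -0.60 and 0.24, where the medians of all genes were 0.04, 0.01 and 0.01. All 3 comparisons divide by the same totals, and IP scaling sets the median gene near 0, so values are relative to the average mRNA. Same-numbered RIP libraries deviated together (r of at least 0.184 for every pair), and a fit with the replicate number as a block kept every call. It added GFER and TOMM7 as higher and TIMM10, TIMM8B and TOMM22 as lower with eIF4A2, for 5 and 21. It added TIMM8A as higher and TIMM17A, TOMM20 and TOMM34 as lower with eIF4A1, for 9 and 14. With DDX6 it added CHCHD4, TIMM13, TIMM21 and TIMM8B as higher and GRPEL1, TIMM23 and TIMM44 as lower, for 14 and 11. The block fit also called more of all 17474 genes, with 5319 higher and 5582 lower for eIF4A2, 5667 and 5598 for eIF4A1, and 5174 and 5313 for DDX6.

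**Figure D1:**
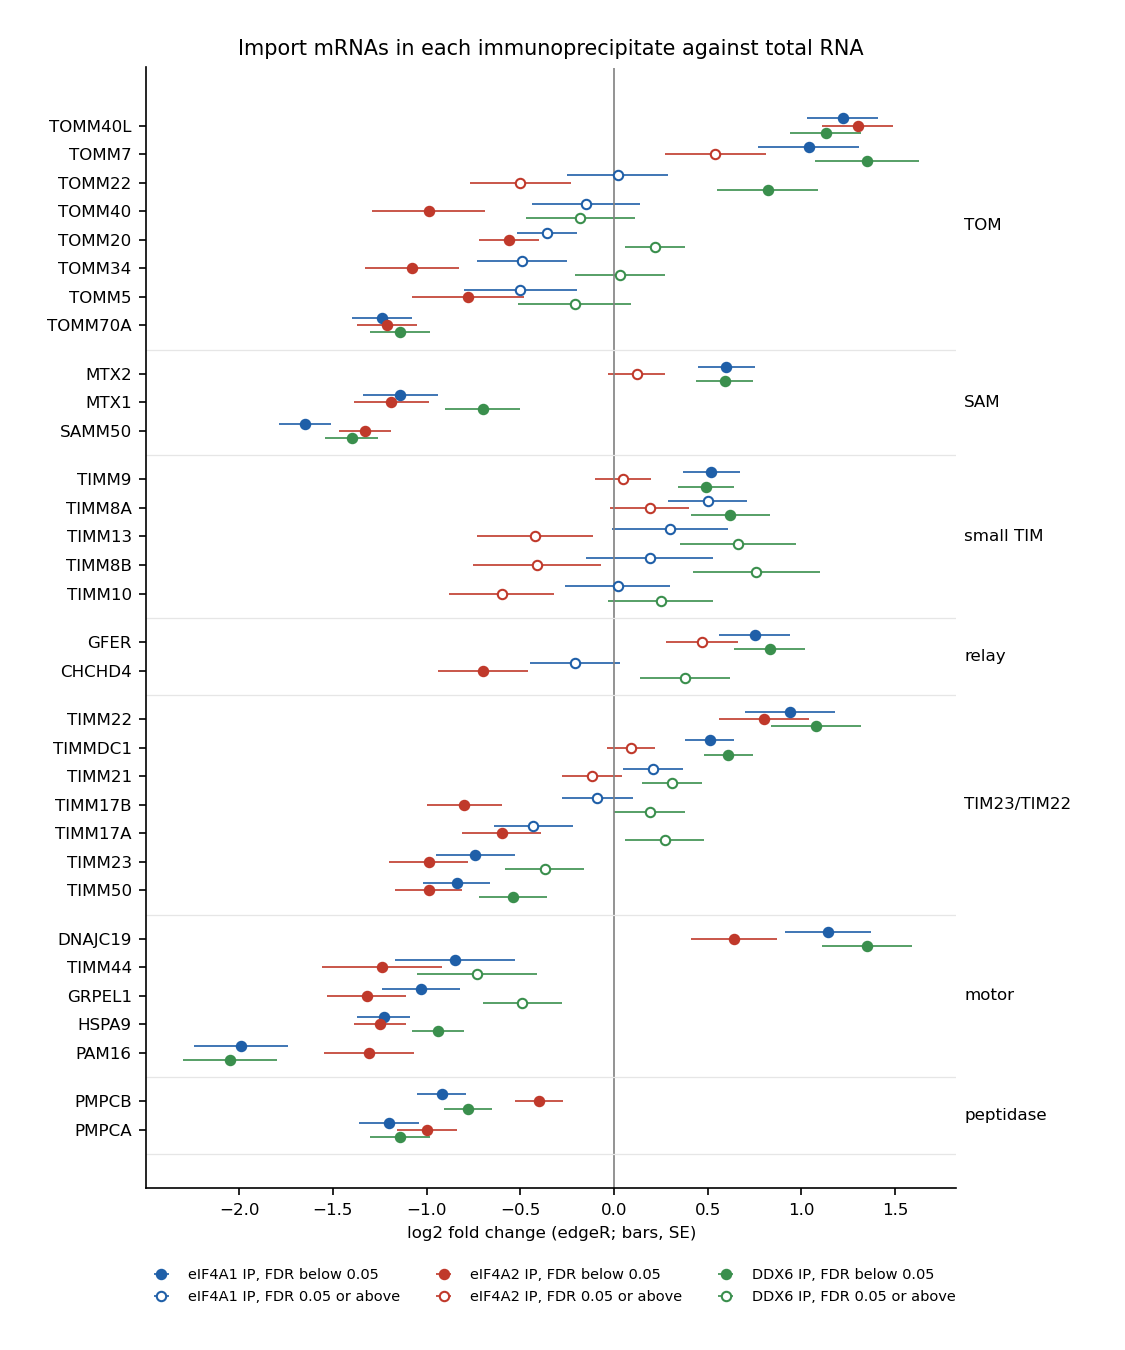
Log2 fold change (x axis, with SE bars) of the 32 tested import mRNAs in the eIF4A1 (blue), eIF4A2 (red) and DDX6 (green) IPs against RIP total RNA, grouped by part of the machinery, with filled points at FDR below 0.05. TOMM34 is grouped with TOM and TIMMDC1 with TIM23/TIM22. For most TOM, small TIM and TIM23/TIM22 mRNAs the red point lies to the left of the other points, as for TIMM13 (-0.42 against 0.30 and 0.66), while TOMM40L lies above 1 in all IPs and the peptidase mRNAs lie below 0 in all.

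TOMM40L, DNAJC19 and TIMM22 were raised in the IP of every helicase. TOMM40L, the paralog of the TOMM40 channel protein (chr1:161195729-161200536), stood at 44.2, 52.4 and 41.1 CPM in total RNA, at 93.3, 127 and 100 in the eIF4A1 IP, at 91.5, 136 and 111 in the eIF4A2 IP and at 88.0, 122 and 90.8 in the DDX6 IP. No IP library overlapped the totals. The log2 fold changes were 1.22, 1.30 and 1.13 (SE 0.19 each, highest FDR = 0.000398). DNAJC19, the J-protein of the import motor, rose by 1.14, 0.64 and 1.35, and TIMM22, the channel for carrier proteins, by 0.94, 0.80 and 1.08. In the eIF4A2 IP the calls of DNAJC19 and TIMM22 were less firm. DNAJC19 lost its call without any of total RNA replicates 1, 2 and 3 or without eIF4A2 IP replicate 2, and TIMM22 without total RNA replicate 3 or eIF4A2 IP replicate 2, so that leaving out 1 library left between 1 and 3 mRNAs higher. Of all genes, between 3626 and 4091 were higher in such fits. TOMM7 was higher in the eIF4A1 IP (1.04 ± 0.27) and the DDX6 IP (1.35 ± 0.28) and had a value of 0.54 ± 0.27 in the eIF4A2 IP (FDR = 0.114, and 0.00935 with the block). GFER, TIMM9, TIMMDC1, a complex I assembly factor of the TIM17 family, and MTX2, a metaxin of the outer membrane, were also higher with eIF4A1 and DDX6 at log2 changes of 0.49 to 0.83. TIMM8A (0.62 ± 0.21) and TOMM22 (0.82 ± 0.27) were higher with DDX6. The smaller of these changes rested on single libraries. TIMM9 lost its eIF4A1 call without eIF4A1 IP replicate 2 and its DDX6 call without total RNA replicate 3 or DDX6 IP replicate 2. TOMM22 lost its DDX6 call without total RNA replicate 1 or 3 or DDX6 IP replicate 2, and TIMM8A without total RNA replicate 1 or DDX6 IP replicate 2.

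Messages for the peptidase and for parts of the motor and the outer membrane machinery were depleted from every IP. SAMM50, the pore of the sorting and assembly machinery (chr22:44351322-44406411), stood at 61.9, 61.8 and 49.4 CPM in total RNA and at 17.1 to 26.4 in the 9 IP libraries, all below the totals. Its log2 fold changes with eIF4A1, eIF4A2 and DDX6 were -1.65, -1.33 and -1.40 (SE 0.14 each). TOMM70A, the receptor for carrier precursors, had values of -1.24, -1.21 and -1.14, and HSPA9 of -1.23, -1.25 and -0.94. The peptidase subunits PMPCA (-1.20, -1.0 and -1.14) and PMPCB (-0.92, -0.40 and -0.78) were lower in all IPs, as were MTX1 (-1.14, -1.19 and -0.70) and TIMM50, the receptor of the TIM23 complex (-0.84, -0.99 and -0.54). PAM16, a regulator of the motor, was lower by more with eIF4A1 and DDX6 (-1.99, -1.31 and -2.05) at only 11.9 to 13.9 CPM in total RNA, and some of its exons belong to the CORO7-PAM16 readthrough gene as well. GRPEL1, the nucleotide exchange factor of HSPA9, TIMM44, which tethers the motor, and TIMM23, the inner membrane channel, were lower with eIF4A1 and eIF4A2, at -0.74 to -1.32. Their DDX6 values of -0.49, -0.73 and -0.37 did not pass. Some of these calls rested on single libraries. TIMM44 lost its eIF4A1 call without total RNA replicate 1 or 2 or eIF4A1 IP replicate 1 or 3, TIMM23 its eIF4A1 call without eIF4A1 IP replicate 1. With DDX6, TIMM50 lost its call without total RNA replicate 1 or 2 or DDX6 IP replicate 1 or 3, and MTX1 without total RNA replicate 2 or DDX6 IP replicate 3. PMPCB lost its eIF4A2 call without total RNA replicate 1 or eIF4A2 IP replicate 1 or 2.

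A further 7 messages passed as lower with eIF4A2 and did not pass with the other helicases. These were TOMM40, TOMM34, a cytosolic chaperone-associated factor, TOMM20, TOMM5, TIMM17A, TIMM17B, both TIM23 complex subunits, and CHCHD4, the receptor of the disulfide relay, with log2 changes from -0.56 to -1.08 in the eIF4A2 IP. TOMM34 and TIMM17B kept this call without any single library. TOMM5 lost it without any of the total RNA replicates or eIF4A2 IP replicate 1 or 2, CHCHD4 without total RNA replicate 1 or 2 or eIF4A2 IP replicate 1 or 3, TIMM17A without total RNA replicate 2 or eIF4A2 IP replicate 1 or 3, TOMM40 without total RNA replicate 2 or eIF4A2 IP replicate 3, and TOMM20 without eIF4A2 IP replicate 1. A call with eIF4A2 and none elsewhere is no test of a difference, so the IPs were compared directly.

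Between the eIF4A2 and DDX6 IPs, 14 import mRNAs were lower and 1 was higher with eIF4A2, against 11.3% lower and 9.82% higher of all genes, with a median log2 difference of -0.52 where that of all genes was -0.00. Values were negative for 27 of 32 (8795 of all 17474 genes). The lower mRNAs came from most parts of the machinery. They were 4 of 8 mRNAs listed as TOM (TOMM22, TOMM34, TOMM7 and TOMM20) and 3 of 5 small TIM chaperones (TIMM8B, TIMM13 and TIMM10). Others were TIMM17B, TIMM17A and TIMMDC1 of the TIM23/TIM22 list, and CHCHD4, DNAJC19, GRPEL1 and MTX2. These lists place the cytosolic TOMM34 with TOM and the complex I assembly factor TIMMDC1 with TIM23/TIM22. Neither peptidase subunit was among the lower mRNAs. The higher mRNA was PAM16 (0.74 ± 0.25, FDR = 0.0491).

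TOMM22, the central receptor of the TOM complex (chr22:39077962-39081426), showed the largest difference of the 32. It stood at 88.3, 133 and 103 CPM in the eIF4A2 IP and at 213, 368 and 229 in the DDX6 IP, with 156, 187 and 117 in total RNA. Every DDX6 library lay above every eIF4A2 library, by a log2 difference of 1.32 ± 0.27 (FDR = 0.00661). TIMM17B stood at 30.5, 36.9 and 40.5 CPM with eIF4A2 and at 66.8, 87.0 and 61.5 with DDX6, a difference of -1.0 ± 0.20 (FDR = 0.0053). TOMM20 stood at 387, 483 and 475 CPM with eIF4A2 and 686, 813 and 806 with DDX6 (-0.78 ± 0.16, FDR = 0.0062). For both mRNAs too the ranges of the IPs did not meet. The remaining large differences were -1.17 ± 0.34 for TIMM8B, -1.11 ± 0.25 for TOMM34 and -1.08 ± 0.24 for CHCHD4.

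TIMM13 (chr19:2425623-2427584), an mRNA that the study also followed through gradient fractions by RT-qPCR, stood at 253, 272 and 137 CPM in total RNA. It stood at 251, 385 and 178 CPM in the eIF4A1 IP, at 145, 192 and 160 in the eIF4A2 IP and at 303, 475 and 269 in the DDX6 IP. The DDX6 libraries were all above the eIF4A2 libraries, whereas total RNA, with a low replicate 3, overlapped every IP. TIMM13 was lower with eIF4A2 than with DDX6 by 1.08 ± 0.31 (FDR = 0.0272). Its changes against total RNA of 0.30 ± 0.31 for eIF4A1, -0.42 ± 0.31 for eIF4A2 and 0.66 ± 0.31 for DDX6 did not pass (FDR = 0.432, 0.274 and 0.0926). The study, by its own tests, lists TIMM13 as bound by DDX6 only, and reports that its polysome association was sensitive to puromycin. With the replicate block the DDX6 value passed (0.66, FDR = 0.00452) and the eIF4A2 value did not (-0.36, FDR = 0.0818).

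**Figure D2:**
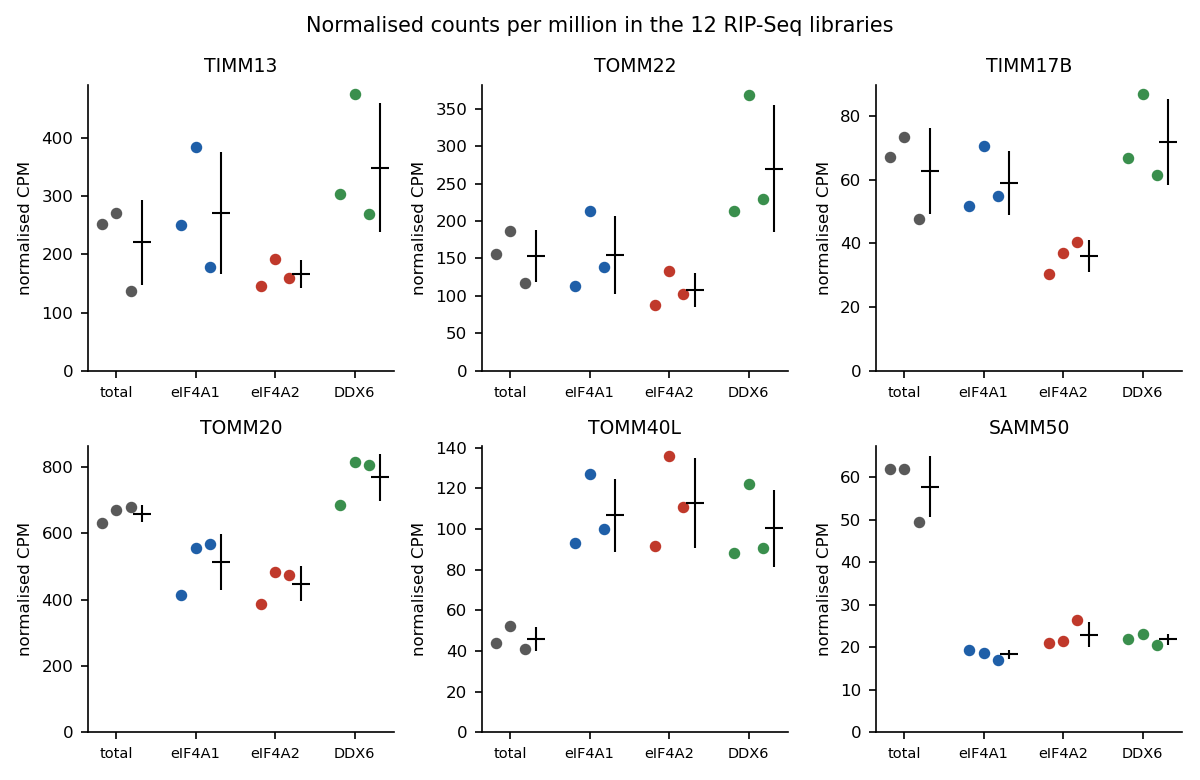
TMM-normalised CPM (y axis, from 0) of 6 import mRNAs in the 12 RIP-Seq libraries, with a point for each library and the mean with SD beside it. For TIMM13, TOMM22, TIMM17B and TOMM20 all eIF4A2 points lie under all DDX6 points, while TOMM40L is raised and SAMM50 lowered in all 9 IP libraries.

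The size of this set depended on the fit and on single libraries. With the replicate block 23 were lower, the same 14 among them, and 2 higher, where 3842 and 3232 of all 17474 genes were called. Only 5 were lower without eIF4A2 IP replicate 1 or without DDX6 IP replicate 2, and 8 without eIF4A2 IP replicate 3. Of all genes, 723 of 17783, 742 of 17884 and 1193 of 17797 were lower in these fits, in that order. The main fit had 1969 of 17474. TIMM13, TIMM8B, TIMM10, TOMM7, DNAJC19 and MTX2 lost their call in each of these cases, whereas TOMM22, TOMM20, TOMM34, TIMM17B and CHCHD4 kept it. GRPEL1, TIMM17A and TIMMDC1 lost it in the first pair of cases. MTX2 also lost it without DDX6 IP replicate 1 or 3 and DNAJC19 without DDX6 IP replicate 3, and PAM16 was no longer higher without eIF4A2 IP replicate 1 or 3 or any DDX6 IP replicate.

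Between the eIF4A paralogs edgeR called no import mRNA in either direction, against 0.973% higher and 0.0858% lower with eIF4A2 over all genes. Counted by unadjusted p under 0.05 there were 12 (3116 of all 17474 genes), and DESeq2 called 1 higher (PMPCB) and 1 lower (TIMM17B), where it called 541 and 159 of all genes. Log2 differences were negative for 26 of 32 (9224 of all 17474 genes), with a median of -0.30 (all genes -0.02). They were also negative for 61 of 72 mitochondrial ribosomal protein mRNAs and 31 of 37 complex I subunit mRNAs. With the replicate block, 13 import mRNAs were lower and PMPCB was higher, where 1521 and 1245 of all genes were called. The 13 were led by TOMM40 (-0.85, FDR = 0.000612), TIMM17B (-0.70, FDR = 0.00971) and TIMM13 (-0.64, FDR = 0.0253), and PMPCB stood at 0.51 (FDR = 0.00806). TOMM40 held 177, 237 and 140 CPM in the eIF4A1 IP and 99.8, 134 and 75.2 in the eIF4A2 IP, lower in each of the 3 same-numbered pairs.

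DDX6 and eIF4A1 IPs gave no call either with edgeR (0.0801% higher and 0.0114% lower with DDX6 over all genes). There were 6 mRNAs by unadjusted p under 0.05 (2438 of all 17474 genes), and 2 higher with DESeq2 (TIMM17A and TOMM20), where it called 362 higher and 177 lower of all genes. Values were positive for 27 of 32 (8566 of all 17474 genes), with a median of 0.25 (all genes -0.01). They were also positive for 70 of 72 mitochondrial ribosomal protein mRNAs (median 0.39) and 35 of 37 complex I subunit mRNAs (median 0.36). The block gave 7 import mRNAs higher, among them TOMM22 (0.80, FDR = 0.00827) and TOMM20 (0.59, FDR = 0.0107), and 0 lower, where 1062 and 668 of all genes were called.

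Across the 32 mRNAs the IP signal fell with coding length. Spearman's rho between coding length and log2 fold change against total RNA was -0.52 for eIF4A1, -0.45 for eIF4A2 and -0.59 for DDX6, and 0.49 for the difference between eIF4A2 and DDX6 (n = 32 mRNAs measured in the same libraries, a description without a test). Short messages such as TOMM7 and DNAJC19 were at the raised end and HSPA9 and TOMM70A at the lowered end. Exceptions included PAM16 (375 nt, -1.99, -1.31 and -2.05) and TOMM5 (153 nt, lower with eIF4A2). TOMM40L (924 nt) was raised in every IP, and CHCHD4 (426 nt) and TOMM20 (435 nt) were lower with eIF4A2. For comparison, of the 37 complex I subunit mRNAs none (0) passed as higher with eIF4A2 than in total RNA and 30 passed as lower, and 22 were lower than with DDX6. Of the 72 mitochondrial ribosomal protein mRNAs, 2 were higher and 53 lower with eIF4A2, and 42 were lower than with DDX6. Among 16 tested import genes outside the 33, 2 rose and 9 fell with eIF4A2, and 3 were lower and 1 higher than with DDX6.

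To place the import mRNAs in the sucrose gradient, polysomal and subpolysomal RNA of control cells were compared. Most lay towards polysomes. Of 32, 22 were higher in polysomal RNA and 6 lower, against 33.7% higher and 38.4% lower of 17115 genes, and the median log2 ratio was 0.60 where that of all genes was -0.10. The ratio compares shares of each library, so 0 is the average mRNA and not an equal number of molecules. All 3 outer membrane assembly mRNAs (MTX2, SAMM50 and MTX1) were higher, as were 6 of 7 mRNAs listed as TIM23/TIM22, TIMMDC1 among them. TIMM21, which couples TIM23 to the respiratory chain, stood at 0.01 ± 0.14. The 6 lower mRNAs were TOMM5, PAM16, TIMM8B, TOMM7, DNAJC19 and TIMM8A.

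MTX2 (chr2:177134123-177202753) was the most polysomal, with a log2 ratio of 2.12 ± 0.11 (FDR = 5.47e-14). It stood at 15.2 to 17.4 CPM in the 4 subpolysomal libraries and 65.9 to 75.2 in the 3 polysomal libraries of the fit. TOMM34 (1.70 ± 0.09), TIMM23 (1.69 ± 0.09), TIMM10 (1.64 ± 0.14) and TIMM17B (1.42 ± 0.24) followed. With all 24 libraries as labelled, MTX2 stood at 2.09, TOMM34 at 1.51, TIMM23 at 1.67, TIMM10 at 1.52 and TIMM17B at 1.26. TOMM5 (chr9:37582643-37592601) lay at the other end, with 25.8 to 34.0 CPM in the 4 subpolysomal libraries and 3.21, 2.13 and 2.97 in polysomal RNA, a ratio of -3.41 ± 0.16 (FDR = 1.81e-14). TOMM7 (chr7:22852247-22862468) had 329, 374, 429 and 343 CPM against 164, 167 and 164 (-1.16 ± 0.11). As labelled, the ratios were -3.65 for TOMM5 and -1.44 for TOMM7. The small TIM chaperones, which act as TIMM9 with TIMM10 and as TIMM8A with TIMM13, were divided, since TIMM10, TIMM13 and TIMM9 were higher and TIMM8B (-1.18 ± 0.11) and TIMM8A (-1.05 ± 0.15) lower in polysomal RNA (-1.41 and -1.20 as labelled). Reading frames of all 5 have between 83 and 97 codons.

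TIMM13 had the widest range of ratios between replicate numbers of the 32. In subpolysomal RNA it stood at 45.8, 46.9, 168 and 91.3 CPM and in polysomal RNA at 238, 157 and 99.8, with 93.7 in the library labelled replicate 3. With pools matched by replicate number, its log2 ratio was 2.37, 1.73, -0.84 and 0.13. It was far above 0 in replicates 1 and 2, near 0 in replicate 4 and below 0 in replicate 3, whose polysomal library went against its label. The joint value of 0.91 ± 0.37 passed (FDR = 0.0307), but did not without subpolysomal replicate 1 or 2 or polysomal replicate 1, nor with all 24 libraries as labelled (0.73, FDR = 0.0675). With all 24, the median ratio of the import mRNAs was 0.58, and 18 were higher and 6 lower (5837 and 6199 of all 16776 genes). TIMMDC1, TOMM20 and TOMM22 lost their calls as well (0.06, 0.33 and 0.11). TOMM22 also lost its call without subpolysomal replicate 1 or polysomal replicate 2, and TIMM44 without subpolysomal replicate 2.

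**Figure D3:**
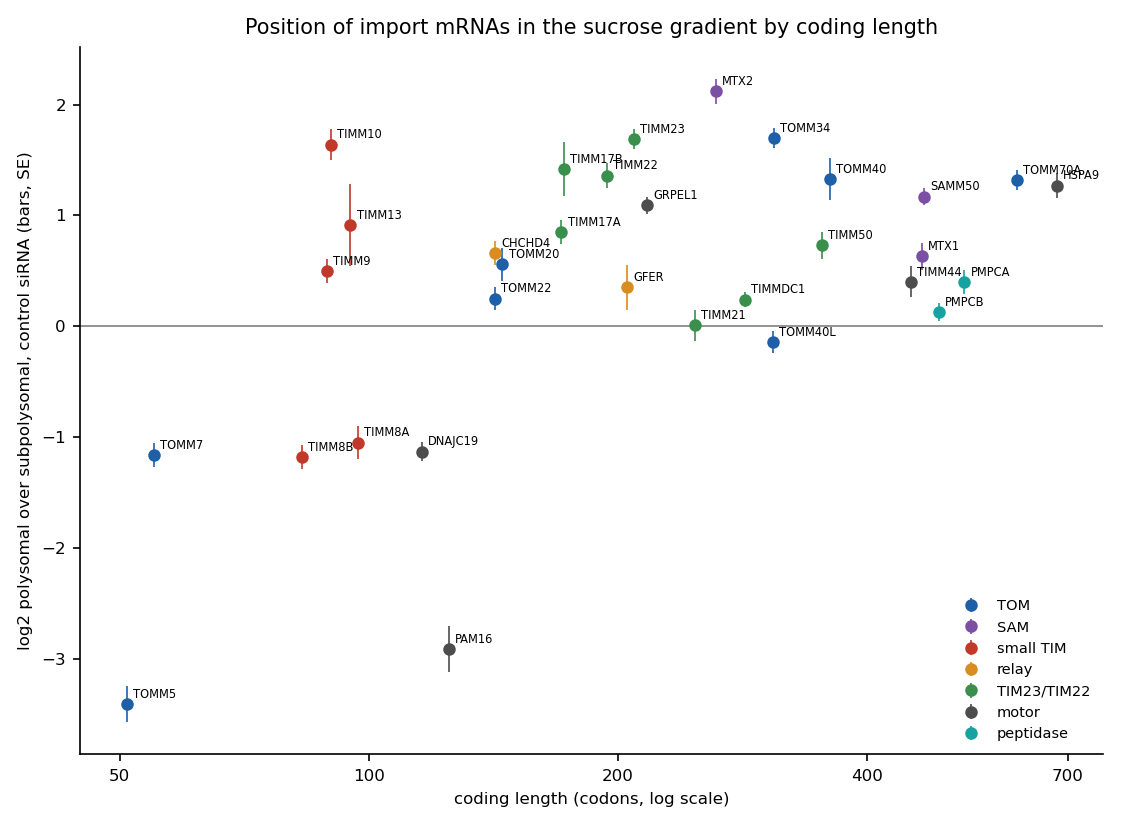
Log2 ratio of polysomal to subpolysomal RNA in control siRNA cells (y axis, with SE bars) against coding length in codons (x axis, log scale) for the 32 tested import mRNAs, coloured by part of the machinery. TOMM5, at 51 codons and -3.41, and PAM16, at 125 codons and -2.91, lie far under the rest, and TIMM10 and TIMM8B, at 90 and 83 codons, lie on opposite sides of 0.

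Spearman's rho between the polysomal ratio and coding length was 0.38 over the 32 mRNAs, and 0.42 with all 24 libraries as labelled. Among the other import genes 8 of 16 were higher and 7 lower. For the mitochondrial ribosomal proteins 50 of 72 were higher and 6 lower, and for complex I subunits 28 of 37 and 6. As labelled, these counts were 8 and 7, 46 and 6, and 24 and 6.

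Depletion of CNOT1 changed the import mRNAs in both directions. In bulk RNA, a change in every cell and a larger change in some cells cannot be told apart. In input RNA 7 rose and 7 fell, against 19.6% higher and 21.1% lower of all genes, with a median of 0.02. In subpolysomal RNA 8 rose and 7 fell, against 17.7% and 24.3%. In polysomal RNA 7 rose and 6 fell, against 17.1% and 14.6%. These shares are near those of all genes. Of the 8 mRNAs listed as TOM, 4 fell in input (TOMM5, TOMM7, TOMM20 and the cytosolic TOMM34) and 1 rose (TOMM70A). Of the 5 motor mRNAs, 2 rose (GRPEL1 and HSPA9) and 1 fell (PAM16), and no peptidase mRNA passed in either direction there.

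TOMM5 fell the most in input, from 5.14, 6.33, 5.99 and 6.29 CPM to 2.70, 2.48, 2.47 and 2.61, by 1.21 ± 0.13 on the log2 scale (FDR = 5.34e-07). TOMM7 fell from 186, 160, 176 and 167 CPM to 102, 85.6, 88.5 and 97.7, by 0.88 ± 0.10 (FDR = 9.1e-07). TOMM20 (chr1:235272656-235292152) fell from 568, 622, 593 and 653 CPM to 324, 349, 290 and 365, by 0.87 ± 0.14 (FDR = 5.26e-05). In all 3 mRNAs every knockdown library lay under every control library. TOMM34 fell by 0.59 ± 0.08, TIMMDC1 by 0.47 ± 0.06 and TIMM8B by 0.43 ± 0.10. PAM16 (-0.48 ± 0.18, FDR = 0.0353) lost its call without control replicate 1 or 3 or CNOT1 siRNA replicate 1, 2 or 3.

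TIMM9, the partner of TIMM10, rose in input from 26.9, 24.9, 26.6 and 27.3 CPM to 40.5, 39.3, 39.1 and 37.7, by 0.57 ± 0.10 (FDR = 0.000105). CHCHD4 rose from 30.3, 29.8, 24.3 and 26.0 CPM to 42.3, 42.4, 37.5 and 39.6, by 0.55 ± 0.11 (FDR = 0.000258). For both, knockdown and control libraries did not overlap. TOMM70A (0.37 ± 0.08), GRPEL1 (0.30 ± 0.07), HSPA9 (0.29 ± 0.10), TIMM23 (0.25 ± 0.08) and SAMM50 (0.25 ± 0.07) rose by less. HSPA9 lost its call without control replicate 3 or CNOT1 siRNA replicate 1, and TIMM23 without control replicate 3. Same-numbered input libraries deviated together (r from 0.195 to 0.352), and a fit of the input libraries alone with the replicate block called 14 higher and 10 lower, among them all 14 named above, where 5246 and 5161 of all 15686 genes were called. TIMM13 did not pass in input (-0.10 ± 0.34, FDR = 0.84), with 125, 116, 128 and 93.6 CPM in control and 103, 124, 91.7 and 113 in CNOT1 siRNA cells.

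**Figure D4:**
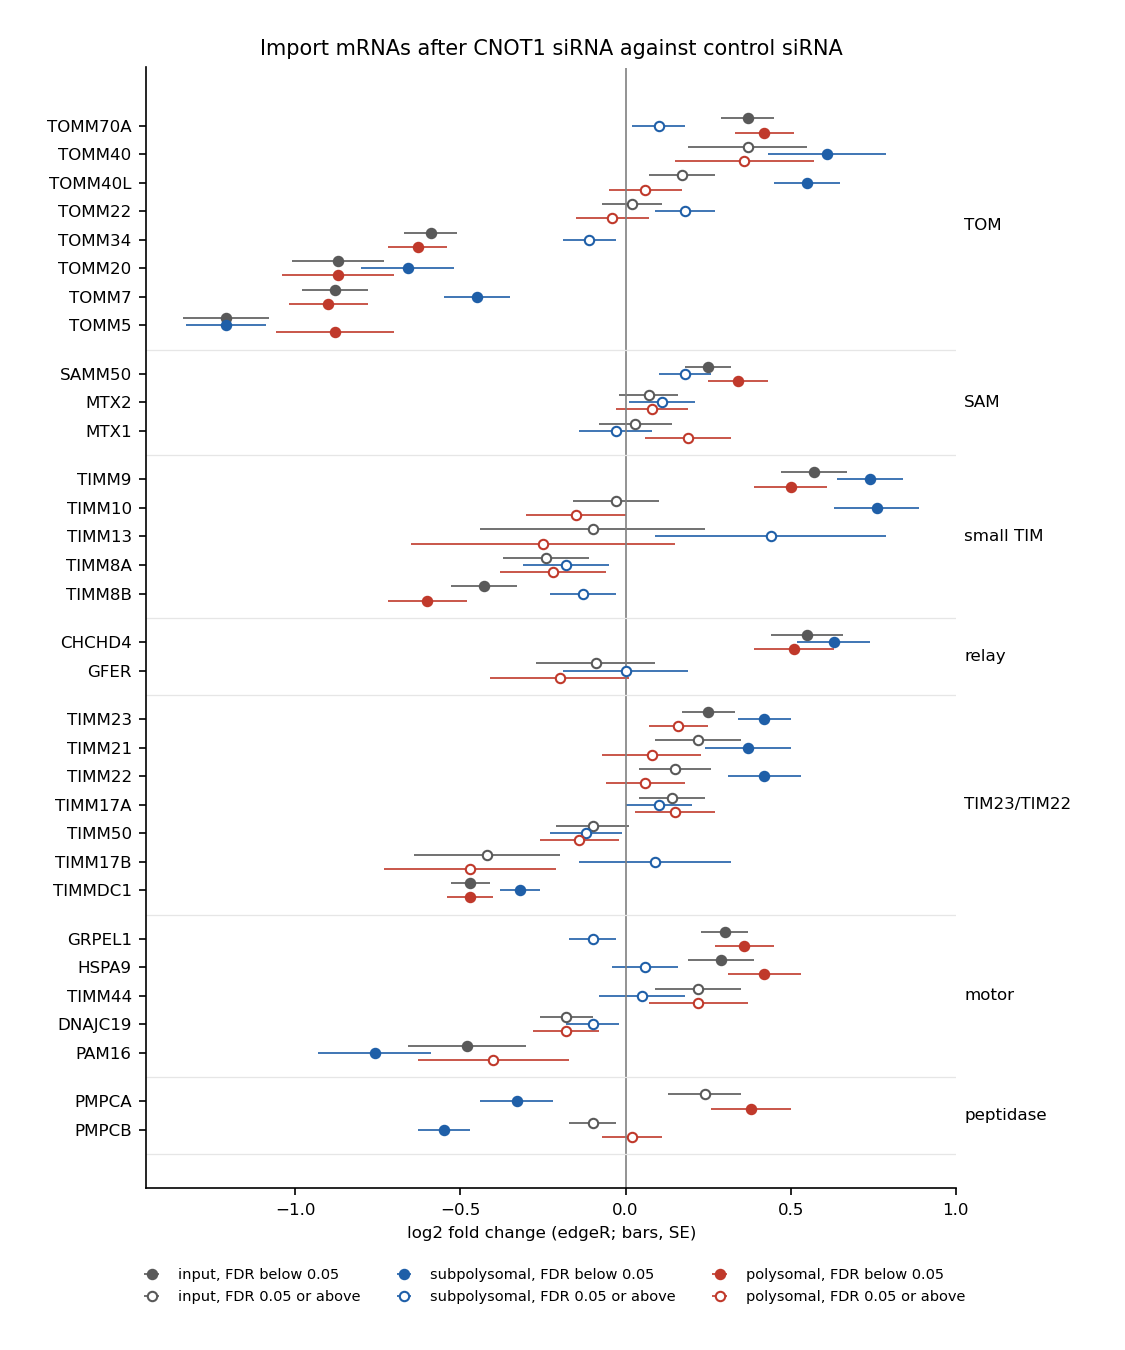
Log2 fold change after CNOT1 siRNA (x axis, with SE bars) of the 32 tested import mRNAs in input (grey), subpolysomal (blue) and polysomal (red) RNA, with filled points at FDR below 0.05. TOMM5, TOMM7, TOMM20 and TIMMDC1 are filled and left of 0 in all RNA pools and TIMM9 and CHCHD4 filled and right of 0 in all, whereas TIMM10 and PMPCB are filled in the subpolysomal pool only, at 0.76 and -0.55.

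Some mRNAs passed in the same direction in input and in both fractions. TOMM5, TOMM20, TOMM7 and TIMMDC1 were lower in all RNA pools, with subpolysomal changes of -1.21, -0.66, -0.45 and -0.32 and polysomal changes of -0.88, -0.87, -0.90 and -0.47. TIMM9 (0.74 subpolysomal and 0.50 polysomal) and CHCHD4 (0.63 and 0.51) were higher in all. TOMM34, which fell in input and polysomal RNA, stood at 42.7 to 48.7 CPM in control and 38.6 to 45.6 in CNOT1 siRNA subpolysomal RNA (-0.11 ± 0.08), which overlapped. Further mRNAs passed in a single fraction or in opposite directions. In subpolysomal RNA TIMM10 (0.76 ± 0.13), TOMM40 (0.61 ± 0.18), TOMM40L (0.55 ± 0.10), TIMM22 (0.42 ± 0.11), TIMM23 (0.42 ± 0.08) and TIMM21 (0.37 ± 0.13) passed as higher, and PAM16 (-0.76 ± 0.17), PMPCB (-0.55 ± 0.08) and PMPCA (-0.33 ± 0.11) as lower. In polysomal RNA TOMM34 (-0.63 ± 0.09) and TIMM8B (-0.60 ± 0.12) were lower and TOMM70A and HSPA9 (both 0.42), PMPCA (0.38), GRPEL1 (0.36) and SAMM50 (0.34) higher. TIMM21 lost its subpolysomal call without control replicate 3 or CNOT1 siRNA replicate 1 or 2, and PMPCA without control replicate 4 or CNOT1 siRNA replicate 2. In polysomal RNA PMPCA lost its call without control replicate 2 or 4 or CNOT1 siRNA replicate 1 or 2, and HSPA9 and SAMM50 without control replicate 1.

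With all 24 libraries as labelled, no import mRNA was called in polysomal RNA by edgeR, and 0 of 16776 genes were (by unadjusted p under 0.05, 4 and 1123). TOMM20 then stood at -0.40, TOMM7 at -0.48 and TIMM9 at 0.28 (each FDR = 0.663), and the libraries labelled replicate 3 held 323 CPM of TOMM20 for control and 718 for CNOT1 siRNA. That fit also gave 4 higher and 5 lower in input (2245 and 2614 of all genes). In subpolysomal RNA it gave 8 higher and 4 lower (2182 and 3212). Without those 2 libraries, and with the replicate block on the polysomal libraries alone (same-numbered r from 0.291 to 0.574), 10 were higher and 10 lower, among them the 13 named above, where 4523 and 3932 of all 14514 genes were called. TIMM13 passed as lower in that fit (-0.21, FDR = 0.0104), at 238, 157 and 99.8 CPM in control and 158, 163 and 95.5 in same-numbered CNOT1 siRNA libraries. The fall was mainly in the first pair, and without control replicate 1 the joint fit gave 0.07. In the joint fit TIMM13 stood at 0.44 ± 0.35 in subpolysomal (FDR = 0.326) and -0.25 ± 0.40 in polysomal RNA (FDR = 0.668). Its subpolysomal libraries held 80.3, 68.7, 197 and 129 CPM with CNOT1 siRNA, each above the same-numbered control, and the rise passed without control replicate 3 and with the block on these libraries alone (0.55, FDR = 2.87e-05), where 11 import mRNAs were higher and 7 lower and 4279 and 4936 of all 15823 genes were called.

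**Figure D5:**
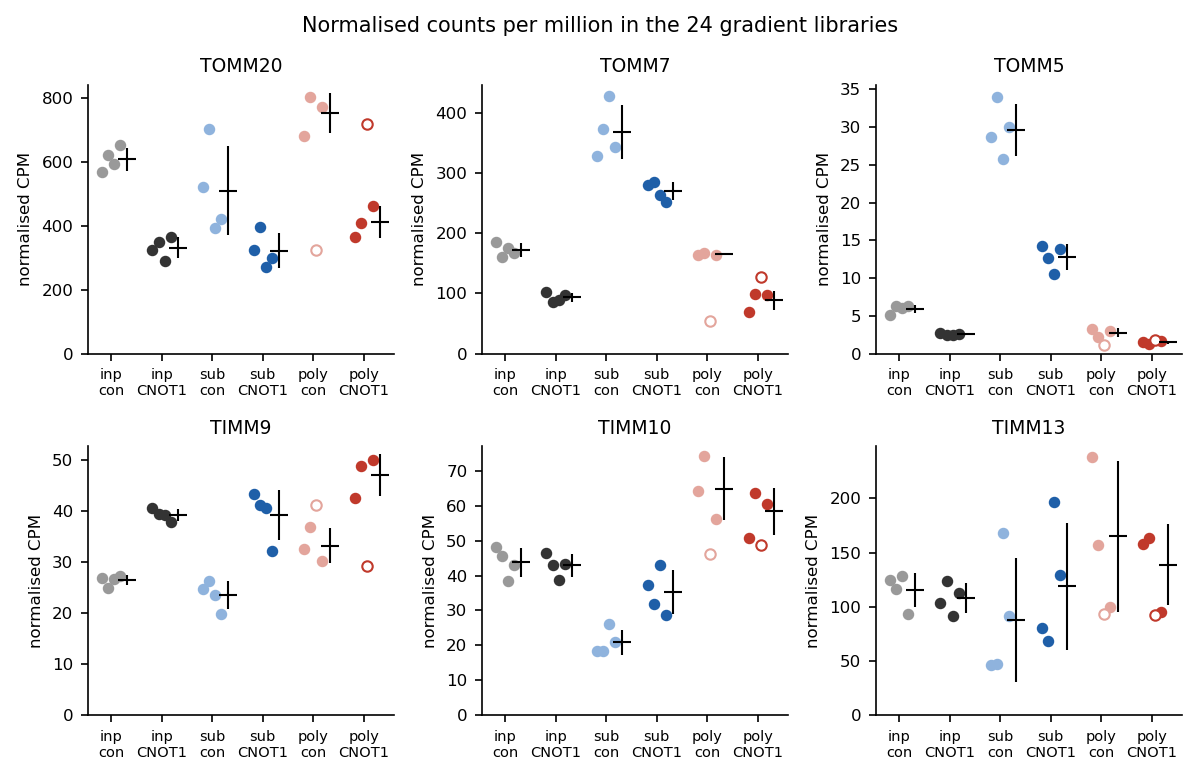
TMM-normalised CPM (y axis, from 0) of 6 import mRNAs in the 24 gradient libraries (inp, input; sub, subpolysomal; poly, polysomal; con, control siRNA), with a point for each library and the mean with SD beside it. Open points are the libraries labelled polysomal replicate 3, left out of mean and SD; for TOMM20 they stand at 323 (control) and 718 (CNOT1 siRNA), away from their groups.

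The effect of CNOT1 siRNA was compared between fractions as its polysomal effect minus its subpolysomal effect. This difference compares shares of libraries, and transfer of messages between fractions was not tested. Of 32, 3 passed as higher and 5 as lower (9.38% and 15.6%), against 9.99% and 7.51% of all genes. The higher share was near that of all genes. The median was -0.14 (all genes 0.07). Both peptidase subunits, PMPCA (0.71 ± 0.16, FDR = 0.0039) and PMPCB (0.57 ± 0.11, FDR = 0.00147), and GRPEL1 (0.46 ± 0.11, FDR = 0.00689) passed as higher. TIMM10 (-0.91 ± 0.20, FDR = 0.00252), TOMM34 (-0.52 ± 0.13), TOMM40L (-0.49 ± 0.15), TIMM8B (-0.47 ± 0.15) and TOMM7 (-0.45 ± 0.15) passed as lower.

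TIMM10 (chr11:57295937-57298276) stood at 18.5, 18.3, 26.0 and 20.8 CPM in control and 37.4, 31.9, 43.0 and 28.6 in CNOT1 siRNA subpolysomal RNA, every value above every control. In polysomal RNA it stood at 64.2, 74.3 and 56.3 against 50.8, 63.8 and 60.6, which overlapped. PMPCB fell in subpolysomal RNA from 118, 116, 93.0 and 103 CPM to 78.9, 73.9, 70.2 and 71.4, below all controls, and stood at 109, 120 and 123 against 115, 119 and 124 in polysomal RNA. TIMM13 had a value of -0.69 ± 0.53 (FDR = 0.42). With all 24 libraries as labelled TIMM10 was the 1 lower mRNA (-0.86, FDR = 0.0155) and PMPCB the 1 higher (0.59, FDR = 0.00596). Of all 16776 genes, 402 were lower and 547 higher. The TIMM8B and TOMM7 calls were lost without control subpolysomal replicate 1 or 4, CNOT1 siRNA subpolysomal replicate 3, control polysomal replicate 1, 2 or 4 or CNOT1 siRNA polysomal replicate 1 (TOMM7 also without CNOT1 siRNA subpolysomal replicate 1 or 2), which left 2 or 3 lower. TOMM40L lost its call without control polysomal replicate 2 or CNOT1 siRNA polysomal replicate 1 or 4, and GRPEL1 without control polysomal replicate 1. Without control subpolysomal replicate 3, HSPA9 and TOMM70A passed as well, for 5 higher (1957 of all 17173 genes).

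Spearman's rho of the CNOT1 effect with coding length was 0.46 in input, 0.02 in subpolysomal and 0.53 in polysomal RNA over the 32 mRNAs (0.51 in polysomal RNA with all 24 libraries as labelled). Of the complex I subunits 0 of 37 rose and 24 fell in input. The mitochondrial ribosomal list had 10 of 72 higher and 15 lower, and the other import genes 1 of 16 higher and 5 lower. As labelled, these counts were 0 and 14, 4 and 9, and 0 and 5.

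Knockdown of TNRC6A and TNRC6B called no import mRNA, and edgeR called 0.0% of 14064 genes higher and 0.0% lower. By unadjusted p under 0.05 there were 0 of the 32 and 289 of all genes, and DESeq2 called 0 of the 32, while of all genes it called 6 higher and 2 lower. Log2 fold changes ran from -0.39 for DNAJC19 to 0.24 for TIMM17B with a median of -0.08 (all genes -0.03). Replicates differed more than the groups for several messages. TIMM13 stood at 113 and 26.8 CPM in control and 105 and 42.0 in knockdown cells (0.07 ± 0.79), low in replicate 2 of both groups, and TOMM40 showed the same pattern at 211 and 68.2 against 194 and 99.3. With 2 libraries a group, changes of the size seen after CNOT1 siRNA could not be told from this spread for TIMM13 and TOMM40.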

How the data were processed

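RNA-Seq counts of 40 HEK293 libraries in 12 groups were analysed, 1 table per library. The authors deposited counts, unnormalised whole numbers per gene symbol. Per the labels and the study's methods, they came from stranded TruSeq libraries, bcl2fastq 2.0, TopHat2 alignment to hg19 and HTSeq, with annotation release and strand setting not given in the sources used here. A merged table of the authors' own IP tests (fold changes and p-values) was not used.

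The import mRNAs and the comparison lists were chosen with earlier results of these data known. In edgeR 4.0.16 (R 4.3.3, limma 3.58.1), each experiment had 1 fit with filterByExpr, TMM factors, group means and two-sided quasi-likelihood F-tests, and a gene counted as called where its FDR (Benjamini and Hochberg, over every gene tested) was under 0.05. SE is the absolute log2 fold change over the square root of F. The gradient fit used 22 of 24 libraries. The script was tested on simulated data. CPM uses TMM-adjusted totals within each experiment, so levels are not compared between experiments. Text names TIMM13, the siRNA targets and the 5 largest called changes in each direction per comparison. Others are named when their subgroup is described, after their values were seen.

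Positions and mRNA features come from GENCODE 44 lifted to GRCh37, 1 transcript per gene, and all 33 symbols matched (TOMM70A as TOMM70). Total counts of 15.4 to 46 M per library (M, mega) limit precision by counting error only. Same-numbered libraries correlated in their deviations from group means at r of 0.184 or more within RIP, 0.195 or more within input, 0.579 or more within subpolysomal and 0.291 or more within polysomal RNA, so replicate numbers pair these libraries. Between subpolysomal and polysomal RNA of control siRNA cells r was -0.47, 0.236 and -0.325. Such values of both signs cannot decide whether same-numbered pools came from the same gradient. Alternatives were DESeq2 1.42.0, RLE factors, no low-count filter, replicate block, compared libraries only, all 24 gradient libraries as labelled, and leaving out each library. The fits with both replicate block and compared libraries only were added after seeing the data.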

Additional observations from a re-analysis of the deposited data

Results flagged for a closer look

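In the test of 192 sets of 4 library values for a single outlying library, chance flags about 1 in 20, and 12 were flagged, 6 of them in polysomal replicate 3, whose CNOT1 counts oppose the labels. In that control library TOMM7 stood at 54.2 CPM (others 164 to 167), TIMM8B at 28.6 (59.5 to 63.9), TIMMDC1 at 54.5 (96.9 to 105), DNAJC19 at 21.5 (40.7 to 42.5) and HSPA9 at 954 (587 to 645), and in the CNOT1 siRNA library TIMM17A stood at 187 (234 to 241). Of the remaining flags, TOMM70A stood at 224 CPM in CNOT1 siRNA input replicate 4 (246 to 250). SAMM50 stood at 74.4 in CNOT1 siRNA input replicate 2 (69.1 to 69.8). TIMM8B stood at 138 in CNOT1 siRNA subpolysomal replicate 3 (126 to 128). In control input replicate 1 DNAJC19 stood at 42.0 (36.8 to 37.4) and PMPCA at 144 (133 to 134). TIMM17A stood at 239 in control polysomal replicate 2 (199 to 203), where the library at 199 is the one labelled replicate 3.

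The effect of CNOT1 siRNA differed between polysomal and subpolysomal RNA, by the interaction test of edgeR, for 8 mRNAs. The log2 differences were 0.71 for PMPCA, 0.57 for PMPCB, 0.46 for GRPEL1, -0.91 for TIMM10, -0.52 for TOMM34, -0.49 for TOMM40L, -0.47 for TIMM8B and -0.45 for TOMM7.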

How the results depend on the processing

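Of 300 recomputed counts of called import mRNAs, 253 stayed within 1.5 times the main count. Counts at 0 in both fits, as after TNRC6A/B siRNA, were among these 253 and say little about stability. The cause of the counts that moved further was not tested, except that fewer libraries leave less to test with. Without the low-count filter, 5 were higher in the eIF4A2 IP than in total RNA (4400 of all 32590 genes). In that setting 6 were lower with eIF4A2 than in the eIF4A1 IP (538), and 2 higher in the DDX6 than the eIF4A1 IP (130). After CNOT1 siRNA, it gave 4 higher in input (3049 of all 34869 genes) and 3 in polysomal RNA (2188). For the polysomal minus subpolysomal effect it gave 1 higher (917). With compared libraries only, 5 were higher in the eIF4A2 IP (4475 of all 16616 genes) and 0 higher than with DDX6 (1392 of 16830). In CNOT1 siRNA input 14 were higher (4848 of 15686), and 2 were lower for the effect difference (667 of 16805). DESeq2 called 1 higher and 1 lower between eIF4A2 and eIF4A1 (541 and 159 of all 17474 genes). It called 2 higher with eIF4A2 than DDX6 (2075) and 2 higher with DDX6 than eIF4A1 (362).

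With the replicate block, 5 were higher in the eIF4A2 IP (5319 of all 17474 genes). For eIF4A2 against the eIF4A1 IP, 1 and 13 passed as higher and lower (1245 and 1521). Against the DDX6 IP 2 and 23 did so (3232 and 3842). In the DDX6 IP 7 were higher than in the eIF4A1 IP (1062), and 5 were higher for the effect difference (2212 of 17115). With the replicate block and compared libraries only, 14 were higher in CNOT1 siRNA input (5246 of all 15686 genes). In polysomal RNA 10 were lower (3932 of 14514). In the TNRC6 experiment, with 2 pairs, the block called 520 and 243 genes and 0 import mRNAs. With all 24 gradient libraries as labelled, 4 were higher in CNOT1 siRNA input (2245 of all 16776 genes) and 4 lower in subpolysomal RNA (3212). In polysomal RNA 0 were higher and 0 lower (0 and 0 of all genes). The effect difference gave 1 and 1 (547 and 402).

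Leaving out 1 library gave 1 to 3 higher in the eIF4A2 IP (3626 to 4091 of all genes). Against the DDX6 IP it gave 0 to 1 higher (745 to 1596) and 5 to 18 lower (723 to 1887). For the effect difference it gave 2 to 5 higher (1197 to 1957) and 2 to 5 lower (889 to 1626). TIMM13, not called there, ran from -0.05 (without eIF4A1 IP replicate 2) to 0.53 in the eIF4A1 IP and from -0.51 to 0.07 (without control replicate 1) after CNOT1 siRNA in polysomal RNA. After TNRC6A/B siRNA it ran from -0.74 (without knockdown replicate 1; -0.57 without control replicate 2) to 1.44, where the lone library left was assumed to vary like the other group. At these depths the low counts of TOMM5 and PAM16 carry the widest counting error.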
